A study of Homo sapiens with 12 samples.

Results

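The 9 genes described here are the DNA-binding and core components of the DREAM and MYB-MuvB complexes together with FOXM1. They are FOXM1, MYBL1, MYBL2, LIN9, LIN37, LIN52, LIN54, TFDP1 and TFDP2, taken by gene name from the DU145 count table, which lists 57167 genes, and by the same Ensembl identifier from the C4-2 table, which lists 61860. All 9 were in both tables, which share 56747 identifiers. They were chosen by name and function and not by a rule on measured values, though earlier results of these data were known. The study set palbociclib, an inhibitor of the kinases CDK4 and CDK6, against its solvent dimethyl sulfoxide (DMSO) in a pair of human prostate cancer lines, C4-2 and DU145, by bulk RNA sequencing. C4-2, derived from LNCaP and castration-resistant, is known to keep RB1, whereas DU145 is known to lack its function. Each line gave a palbociclib group and a DMSO group, 4 groups of 3 libraries, and all cells were kept in RPMI-1640 and fetal bovine serum. The dose and the duration of palbociclib are not stated in the sources used here. No label says that replicates were separate cultures, so p-values measure only a spread between libraries that may be technical.

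In quiescent and early G1 cells, the DREAM complex sits on the promoters of cell-cycle genes and keeps them silent. It joins a pocket protein, p130 or p107, and an E2F4 or E2F5 dimer with a DP protein (TFDP1 or TFDP2) to the MuvB core, which is made of LIN9, LIN37, LIN52, LIN54 and RBBP4. As cells enter the cycle, cyclin-dependent kinases phosphorylate the pocket proteins, the complex comes apart, and MuvB binds B-MYB (MYBL2) and later FOXM1, which activate the genes of G2 and mitosis. MYBL2 and FOXM1 are themselves known targets of DREAM and E2F.

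The column for C4-2 DMSO replicate 3 held 0 for every gene and was left out, so 3 palbociclib libraries stood against 2 DMSO libraries in that line, and 11 libraries were used in all. Library totals lay between 2608851 and 3489659 counts for the label C4-2 and between 16108999 and 16674393 counts for DU145. Levels are given as CPM, counts scaled by the library total. A count of 0 in a library allows a level of up to 0.86 to 1.15 CPM (C4-2) or 0.18 to 0.186 CPM (DU145), for counting error only. Among luminal prostate markers, KLK3, KLK2, ACP3 and FOLH1 were at 0 in all 5 libraries labelled C4-2, though not every marker of that list was. In the same libraries the summed level of 5 mesenchymal and matrix markers was 26399 to 26654 CPM in palbociclib libraries and 28765 to 28830 CPM in DMSO libraries. KLK3, KLK2, FOLH1 and TMPRSS2 were at 0 in all 6 libraries labelled DU145, where the mesenchymal and matrix sum was 296 to 320 CPM in palbociclib libraries and 346 to 365 CPM in DMSO libraries. The groups are therefore called by their labels, and what is said of RB1 refers to the lines as known. The summed level of 5 epithelial markers was lower with palbociclib in both tables, at 412 to 447 against 1045 to 1053 CPM in libraries labelled C4-2 and at 2068 to 2213 against 3221 to 3563 CPM in those labelled DU145. In C4-2, KRT8 and KRT18 made up nearly all of that sum. KRT7 (2.57 against 0.882 CPM) was higher on average with palbociclib, with no overlap between libraries, but from only 1 to 10 counts per library. CDH1 (0.568 against 0.309 CPM) had 1 to 2 counts per library there. Its levels lie under the limit for a count of 0, so that difference cannot be read. The sum of 4 leukocyte markers was 3.21 to 4.23 CPM in palbociclib libraries and 0.305 to 0.372 CPM in DMSO libraries of DU145, nearly all of it CD14 (3.70 against 0.329 CPM), with PTPRC and CD3E at 0 in all 6 libraries, and it stayed at or under 1.99 CPM in each library labelled C4-2, where CD68 was at 0. Mitochondrially encoded genes took 3.07 to 3.37% of counts in palbociclib libraries and 4.4 to 4.92% in DMSO libraries of DU145, and were at 0 in the other table. With those genes left out, all 9 genes kept their direction and call in DU145. The part of the cell type markers in the results was not tested. In bulk RNA, fewer cells that express a gene and less of its RNA per cell cannot be told apart.

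Of the 9 genes, 6 responded differently in the 2 lines by the test between lines given below. In libraries labelled C4-2, 4 of the 8 genes that could be tested were lower with palbociclib and 0 were higher at an edgeR adjusted p under 0.05, where 26.6% of all 11943 genes tested were lower and 25.2% higher. The 4 were MYBL2, MYBL1, FOXM1 and TFDP1, and their log2 fold changes ran between -1.67 and -0.71. In DU145, 3 of 9 were higher (LIN52, FOXM1 and LIN9) and 3 lower (TFDP2, MYBL1 and TFDP1). That is 33.3% each way, near the 28.8% higher and 29.2% lower of all 15361 genes tested. The median log2 fold change of the tested genes was -0.59 in C4-2 and -0.06 in DU145, against medians over all genes of 0.00 and -0.01. A joint model of both lines tested whether the response itself differed, as the DU145 log2 fold change minus that of C4-2. That difference passed the threshold for 6 of the 9 genes, 5 of them higher in DU145 (MYBL2, LIN52, FOXM1, MYBL1 and TFDP1) and 1 lower (TFDP2), where 18.4% of 18139 genes were higher and 15% lower. The 18139 include genes too low to be tested in C4-2 alone, where 11943 were tested. These shares are thus not those of genes testable in both lines, which were not counted.

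**Figure D1:**
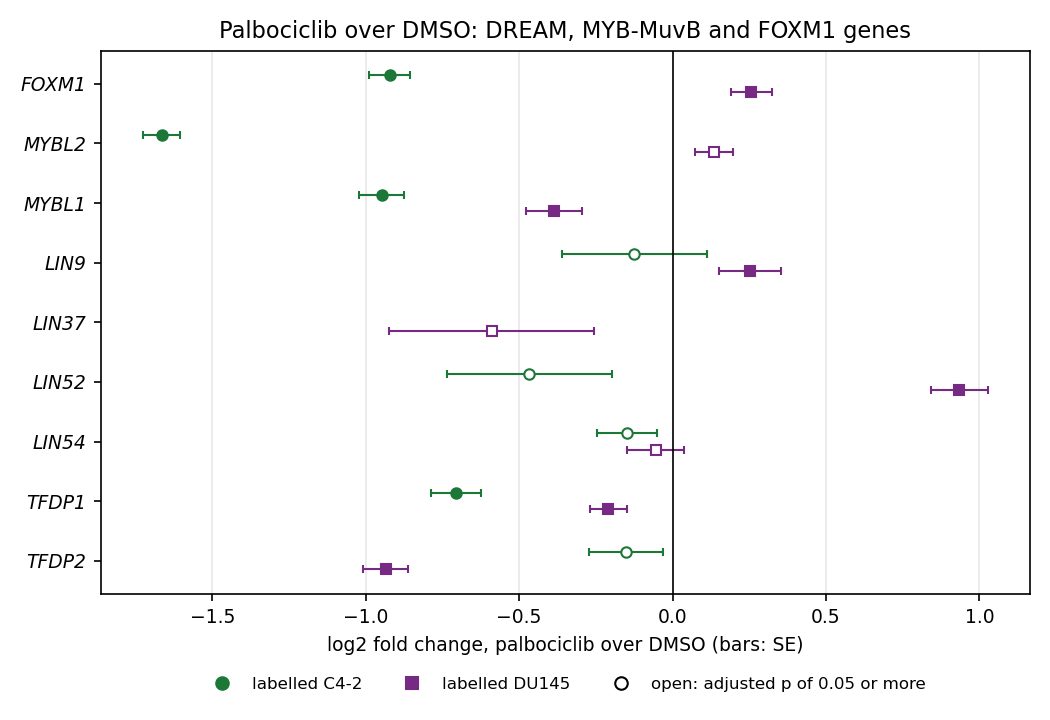
Log2 fold change of palbociclib over DMSO (horizontal axis) for the 9 genes, with SE bars, in libraries labelled C4-2 (circles, n = 3 against 2) and DU145 (squares, n = 3 against 3). Filled symbols passed an edgeR adjusted p of 0.05. MYBL2 lies at -1.67 in C4-2 and 0.13 in DU145, LIN52 at -0.47 and 0.93, and LIN37 was tested in DU145 only.

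Among the factors that activate mitotic genes, FOXM1, a forkhead transcription factor of G2 and M phase, was lower with palbociclib in libraries labelled C4-2 and higher in those labelled DU145. FOXM1 (ENSG00000111206, chr12:2857681-2877155, minus strand, hg38) had 104, 93.1 and 102 CPM with palbociclib, against 177 and 190 CPM with DMSO in C4-2. It had 237, 226 and 259 CPM with palbociclib, against 208, 200 and 207 CPM with DMSO in DU145. In neither line did the groups overlap: each palbociclib library was below both DMSO libraries in C4-2 and above all 3 in DU145. The log2 fold change was -0.92 (SE 0.07, edgeR adjusted p = 1.54e-15) in C4-2 and 0.26 (SE 0.07, edgeR adjusted p = 0.00307) in DU145. Between the lines the responses differed by 1.22 (SE 0.10, edgeR adjusted p = 4.2e-11). In the GENCODE 29 annotation, 781 exonic bases of FOXM1, 15.9% of the total, are shared with ITFG2 on the opposite strand. The C4-2 counts used no strand and the strand setting of the DU145 counts is not given in the sources used here, so reads in that overlap cannot be assigned to one gene. ITFG2 was lower with palbociclib in both lines, with log2 fold changes of -0.96 in C4-2 and -0.57 in DU145 (edgeR adjusted p = 0.00158 and 0.00128).

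MYBL2 encodes B-MYB, the MYB protein that MuvB binds in S phase, and it had the most negative fold change of the 8 genes tested in C4-2. The 250 bases before its RefSeq start are shown because they hold an E2F-like motif close to the start, TTGGCGGG in capitals, which begins 41 bases before it. The sequence is from RefSeq (GRCh38.p14, chr20:43666864-43667113, plus strand), read 5′ to 3′. The gene coordinates given below start upstream of this RefSeq start, so the motif lies within their span.
MYBL2: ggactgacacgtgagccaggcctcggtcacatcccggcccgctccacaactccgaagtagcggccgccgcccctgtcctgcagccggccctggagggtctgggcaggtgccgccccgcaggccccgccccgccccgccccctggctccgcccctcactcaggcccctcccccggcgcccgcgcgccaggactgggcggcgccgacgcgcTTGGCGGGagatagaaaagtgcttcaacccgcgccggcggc
This motif was added to the search after that window had been read, and 1.2% of all 35116 RefSeq windows (250 bases before to 50 after a start, both strands) hold it, as do 15% of early target windows and both windows of LIN54, a gene that passed the test in neither line. The windows of LIN54 overlap, and the motif in them is the same site. MYBL2 (ENSG00000101057, chr20:43667019-43716496, plus strand) had 98.6, 96.2 and 93.8 CPM with palbociclib, against 285 and 307 CPM with DMSO in C4-2. In DU145 it had 602, 586 and 651 CPM with palbociclib, against 560, 555 and 589 CPM with DMSO. The C4-2 groups lay far apart, whereas in DU145 the lowest palbociclib library (586 CPM) fell below the highest DMSO library (589 CPM). The log2 fold change was -1.67 (SE 0.06, edgeR adjusted p = 5.42e-26) in C4-2. In DU145 it was 0.13 (SE 0.06, 95% interval 0.01 to 0.26, edgeR adjusted p = 0.0696), which missed the threshold. Leaving out DU145 palbociclib replicate 2 (edgeR adjusted p = 0.0458) or DMSO replicate 3 (0.0294) brought it under, and over all 14 alternatives the adjusted p ran between 0.00115 and 0.239. At 1.83 (SE 0.09, edgeR adjusted p = 1.7e-16), the difference between lines was the widest of the 9 genes.

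MYBL1, which encodes A-MYB, another MYB protein, was lower with palbociclib in both lines. MYBL1 (ENSG00000185697, chr8:66562175-66614247, minus strand) had 79.6, 78.2 and 77.3 CPM with palbociclib, against 146 and 147 CPM with DMSO in C4-2. In DU145 it had 32.4, 33.1 and 27.9 CPM with palbociclib, against 42.9, 44.5 and 36.8 CPM with DMSO. The groups did not overlap in either line, and replicate 3 was the lowest library of both DU145 groups. The log2 fold change was -0.95 (SE 0.07, edgeR adjusted p = 6.11e-15) in C4-2 and -0.39 (SE 0.09, edgeR adjusted p = 0.00162) in DU145. The responses differed by 0.60 (SE 0.13, edgeR adjusted p = 0.000469).

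**Figure D2:**
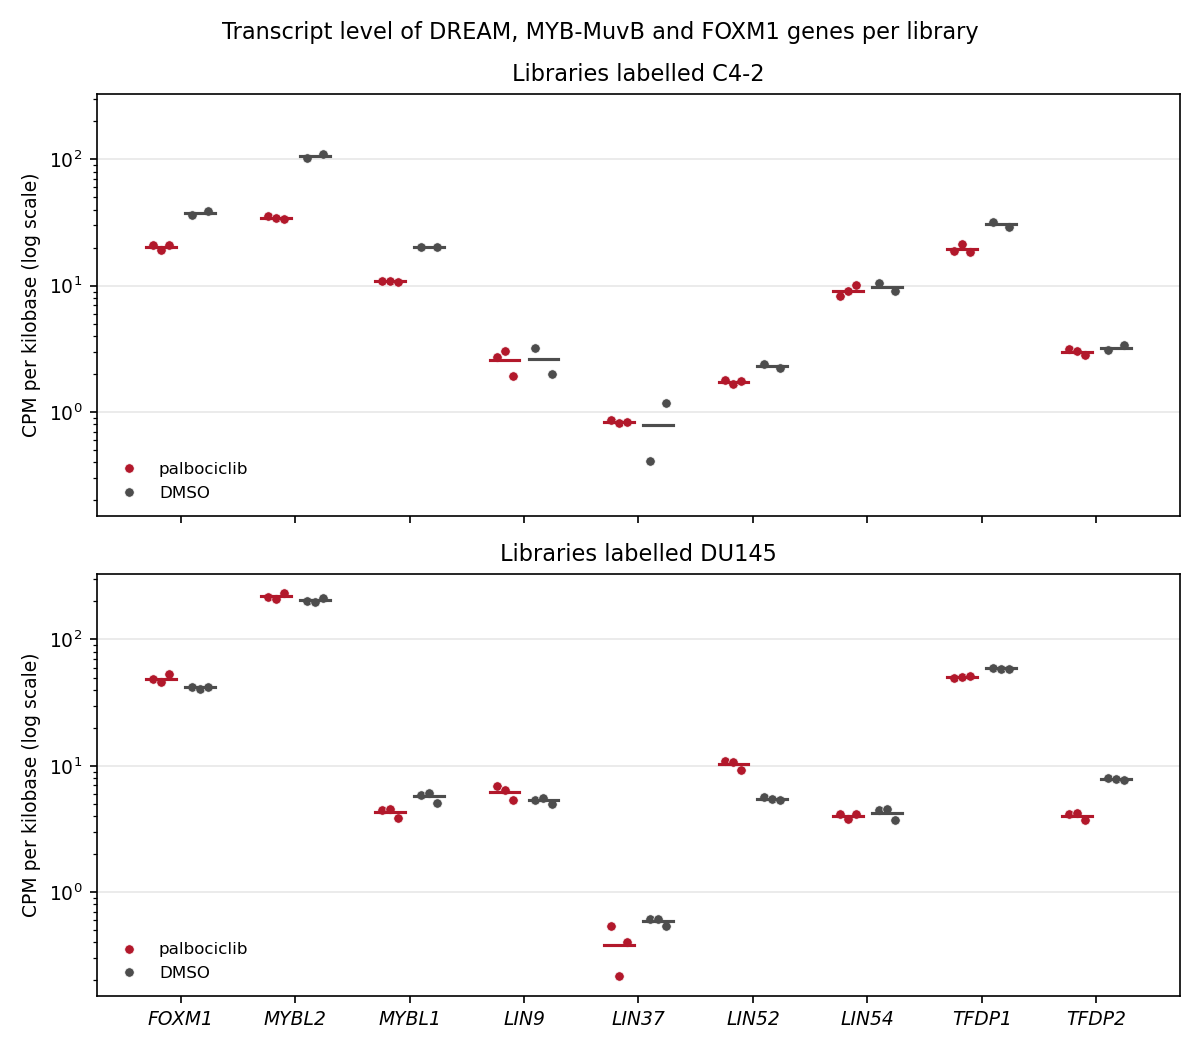
Level of each of the 9 genes in every library as CPM per kilobase of gene model (log axis), palbociclib in red and DMSO in grey, with group means as bars, for libraries labelled C4-2 (top) and DU145 (bottom). MYBL2 is the highest in all 4 groups, and its palbociclib libraries sit at 33.8 to 35.5 against 103 and 110 with DMSO in C4-2.

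Of the MuvB core, LIN52 stood out in DU145. LIN52 is the subunit that the kinase DYRK1A phosphorylates, a step needed for the assembly of DREAM. The bases before its RefSeq start are shown because they hold the E2F motif TTTCCCGC, 25 bases before that start, overlapping TTCCCGCC by all but its first base. Together they form the run of 9 capitals. The sequence is from RefSeq (GRCh38.p14, chr14:74084706-74084955, plus strand). As for MYBL2, the gene coordinates given below start upstream of the RefSeq start, so both motifs lie within their span.
LIN52: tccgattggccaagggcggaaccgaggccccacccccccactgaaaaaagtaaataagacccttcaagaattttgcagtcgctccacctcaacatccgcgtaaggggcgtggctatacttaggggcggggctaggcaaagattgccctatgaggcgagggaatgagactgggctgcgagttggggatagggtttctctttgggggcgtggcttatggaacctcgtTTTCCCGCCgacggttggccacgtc
TTTCCCGC is held by 1.63% of all RefSeq windows and TTCCCGCC by 3.16%. LIN52 (ENSG00000205659, chr14:74084796-74201235, plus strand) had 40.3, 39.9 and 34.4 CPM with palbociclib, against 21.0, 20 and 19.9 CPM with DMSO in DU145. In C4-2 it had 6.58, 6.13 and 6.51 CPM with palbociclib, against 8.88 and 8.29 CPM with DMSO, from 16 to 31 counts per library. Each palbociclib library was above every DMSO library in DU145 and below both in C4-2. The log2 fold change was 0.93 (SE 0.09, edgeR adjusted p = 1.32e-07) in DU145. In C4-2 it was -0.47 (SE 0.27, 95% interval -1.01 to 0.08, edgeR adjusted p = 0.147), which did not pass. The responses differed by 1.44 (SE 0.27, edgeR adjusted p = 7.82e-05).

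Of the other MuvB subunits, LIN9 passed the test in DU145, LIN54 passed in neither line, and LIN37 did not pass in DU145 and was too rare to be tested in C4-2. LIN9, a scaffold subunit that takes part in binding B-MYB (ENSG00000183814, chr1:226231149-226309869, minus strand), had 30.7, 28.4 and 24.0 CPM with palbociclib, against 23.8, 24.8 and 22.3 CPM with DMSO in DU145. The groups overlapped, since palbociclib replicate 3 lay below DMSO replicate 2. Its log2 fold change of 0.25 (SE 0.10, edgeR adjusted p = 0.0385) lost the threshold in 7 of 14 alternatives. Leaving out palbociclib replicate 1 or 2 gave an edgeR adjusted p of 0.182 or 0.0919, and leaving out DMSO replicate 1, 2 or 3 gave 0.0962, 0.0542 or 0.103. In C4-2, LIN9 had 12.1, 13.4 and 8.58 CPM with palbociclib, against 14.3 and 8.95 CPM with DMSO, with a log2 fold change of -0.12 (95% interval -0.60 to 0.35, edgeR adjusted p = 0.684). LIN54, the subunit that binds DNA at the CHR element (ENSG00000189308, chr4:82909973-83012926, minus strand), overlapped between groups in both lines. It had 55.7, 60.9 and 68.7 CPM with palbociclib, against 71.1 and 61.7 CPM with DMSO in C4-2. In DU145 it had 27.9, 25.9 and 27.9 CPM with palbociclib, against 30.4, 30.8 and 25.2 CPM with DMSO. The log2 fold changes were -0.15 (SE 0.10, edgeR adjusted p = 0.212) in C4-2 and -0.06 (SE 0.09, edgeR adjusted p = 0.634) in DU145. LIN37, a subunit known to be needed for repression by DREAM (ENSG00000267796, chr19:35748361-35754519, plus strand), had 6 to 8 counts with palbociclib and 4 and 10 counts with DMSO in C4-2, too few to be tested. In DU145 it had 25, 10 and 19 counts with palbociclib, against 28, 28 and 25 counts with DMSO, with a log2 fold change of -0.59 (SE 0.33, edgeR adjusted p = 0.141). Its exons share 26.7% of their bases with a same-strand gene, AD000671.1, and 41.8% with an antisense gene, AD000671.3, so its counts are uncertain in both tables. The responses of LIN9, LIN37 and LIN54 did not pass the test between lines (edgeR adjusted p = 0.265, 0.505 and 0.6).

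The DP genes, whose products pair with E2F proteins for DNA binding, had unlike fold changes in the 2 lines. TFDP1 (DP1; ENSG00000198176, chr13:113584721-113641470, plus strand) had 70.6, 79.3 and 69.3 CPM with palbociclib, against 119 and 110 CPM with DMSO in C4-2. In DU145 it had 184, 188 and 191 CPM with palbociclib, against 223, 219 and 220 CPM with DMSO. The groups did not overlap in either line, and palbociclib was the lower one in both. The log2 fold change was -0.71 (SE 0.08, edgeR adjusted p = 7.76e-10) in C4-2 and -0.21 (SE 0.06, edgeR adjusted p = 0.0062) in DU145, a difference of 0.53 (SE 0.11, edgeR adjusted p = 0.000179). TFDP2 (DP2; ENSG00000114126, chr3:141944428-142149544, minus strand) showed the reverse order of lines. It had 49.3, 50.4 and 44.1 CPM with palbociclib, against 94.5, 93.5 and 91.6 CPM with DMSO in DU145. In C4-2 it had 37.7, 36.0 and 33.7 CPM with palbociclib, against 36.7 and 40.5 CPM with DMSO. The DU145 groups lay well apart, whereas those of C4-2 overlapped. The log2 fold change was -0.93 (SE 0.07, edgeR adjusted p = 8.61e-09) in DU145 and -0.15 (SE 0.12, 95% interval -0.40 to 0.09, edgeR adjusted p = 0.301) in C4-2. TFDP2 was the one gene of the 9 whose response was lower in DU145 by the test between lines, by -0.75 (SE 0.14, edgeR adjusted p = 0.000108).

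Levels of different genes were compared as CPM per kilobase of gene model. MYBL2 was the highest of the 9 in every group, at 34.7 ± 0.862 with palbociclib (SD, n = 3) and 107 ± 5.57 with DMSO (n = 2) in C4-2, and at 221 ± 12.1 with palbociclib and 204 ± 6.68 with DMSO in DU145 (n = 3 each). In C4-2 with palbociclib the order after MYBL2 was FOXM1, TFDP1, MYBL1, LIN54, TFDP2, LIN9, LIN52 and LIN37. The C4-2 DMSO libraries gave the same order. In C4-2, FOXM1 and TFDP1 overlapped with palbociclib but not with DMSO, TFDP2 and LIN9 overlapped in both groups, and LIN9 and LIN52 overlapped with DMSO. In DU145 with palbociclib the order was MYBL2, TFDP1, FOXM1, LIN52, LIN9, MYBL1, TFDP2, LIN54 and LIN37, with overlap between TFDP1 and FOXM1 and among MYBL1, TFDP2 and LIN54. With DMSO it was MYBL2, TFDP1, FOXM1, TFDP2, MYBL1, LIN52, LIN9, LIN54 and LIN37, with overlap among MYBL1, LIN52 and LIN9. LIN52 in DU145 thus held rank 4 with palbociclib, at 10.4 ± 0.892 CPM per kilobase, and rank 6 with DMSO, at 5.51 ± 0.168. TFDP2 held rank 7 with palbociclib, at 4.03 ± 0.284, and rank 4 with DMSO, at 7.83 ± 0.123.

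The ratios between paralogs lay on opposite sides of their DMSO values in the 2 lines. The ratio of MYBL2 to MYBL1, per kilobase, was 3.23, 3.21 and 3.17 with palbociclib, against 5.08 and 5.46 with DMSO in C4-2. It was 48.4, 46.2 and 60.8 with palbociclib, against 34.0, 32.5 and 41.7 with DMSO in DU145. The ratio of TFDP1 to TFDP2 was 5.95, 7.003 and 6.53 with palbociclib, against 10.3 and 8.63 with DMSO in C4-2. It was 11.9, 11.9 and 13.8 with palbociclib, against 7.51, 7.46 and 7.62 with DMSO in DU145. Both ratios were lower with palbociclib in every library labelled C4-2 and higher in every library labelled DU145, with no overlap between groups; the ratios themselves were not tested.

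**Figure D3:**
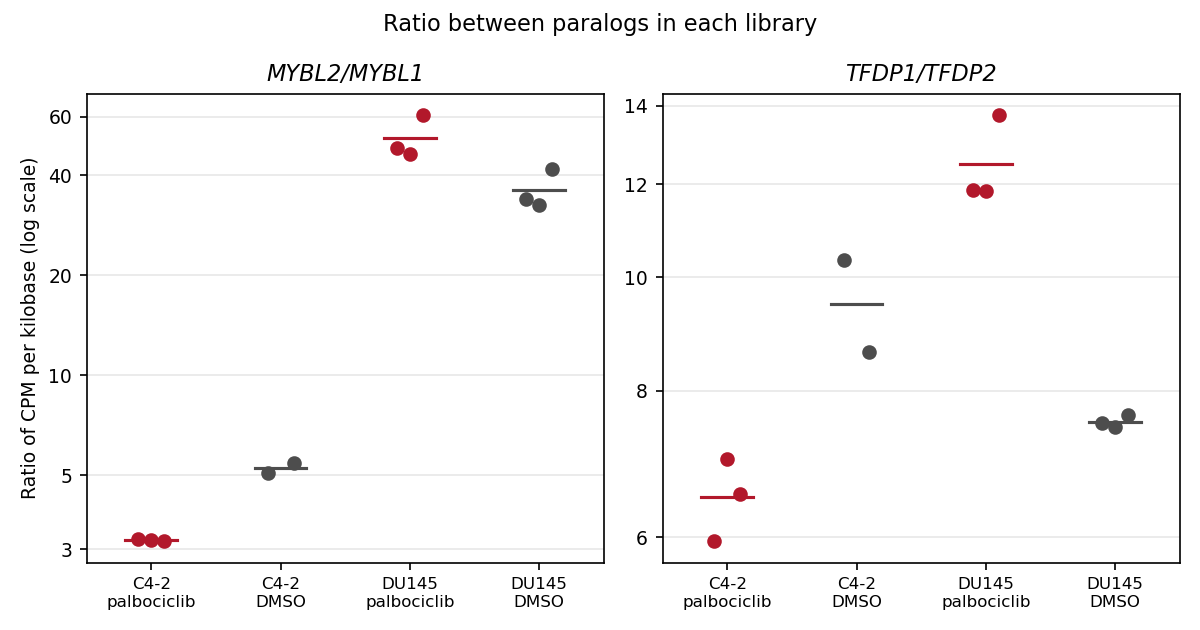
Ratio of CPM per kilobase between paralogs in each library (log axis; the axis does not start at 0), with group means as bars, for MYBL2 over MYBL1 (left) and TFDP1 over TFDP2 (right). Palbociclib libraries (red) lie below DMSO libraries (grey) in C4-2 and above them in DU145 for both ratios, for example 46.2 to 60.8 against 32.5 to 41.7 for MYBL2 over MYBL1 in DU145.

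The partners were taken from a list of 7 genes. It holds the other DREAM subunits and also MYB and TFDP3, which are not among the DREAM subunits named above. In C4-2, 3 of 5 tested partners were lower with palbociclib and 2 higher, where 26.6% of all genes tested were lower and 25.2% higher. RBL1 (p107) was lower, at 20.9 ± 3.83 CPM in palbociclib libraries (SD, n = 3) and 66.0 ± 1.90 CPM in DMSO libraries (n = 2), a log2 fold change of -1.72 (SE 0.12, edgeR adjusted p = 1.18e-15). RBL2, which encodes p130, the pocket protein of DREAM in resting cells, was higher, at 62.4 ± 0.953 CPM in palbociclib libraries and 37.3 ± 7.76 CPM in DMSO libraries, a log2 fold change of 0.71 (SE 0.11, edgeR adjusted p = 1.29e-06). E2F5 was also higher (0.80), and E2F4 (-0.52) and the histone-binding MuvB subunit RBBP4 (-0.43) were lower. In DU145, 2 of 6 were lower and 2 higher, 33.3% each way, near the 29.2% lower and 28.8% higher of all genes tested. RBL2 was lower there, at 47.3 ± 2.37 CPM in palbociclib libraries and 57.4 ± 3.15 CPM in DMSO libraries (n = 3 each), a log2 fold change of -0.26 (SE 0.08, edgeR adjusted p = 0.00802), and its response differed between the lines by -0.93 (edgeR adjusted p = 7.33e-06). RBL1 (-0.62) was lower too, E2F4 (0.31) and E2F5 (0.42) were higher, and RBBP4 (0.06) and MYB (0.27) did not pass. Without DU145 palbociclib replicate 2, RBL2 and E2F5 missed the threshold (edgeR adjusted p = 0.0569 and 0.0769), and E2F5 also did without DMSO replicate 1 (0.056). MYB and TFDP3 were too low to be tested in C4-2, and TFDP3 was at 0 counts in all 11 libraries.

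A further list held 9 enzymes and inhibitors that act on these factors. Of these, CCNA2 and PLK1 are also on the list of late targets described below, so the counts of the lists are not separate. In C4-2, 7 of 9 were lower with palbociclib and 0 higher, against 26.6% and 25.2% of all genes tested. The 7 were CCNF (-1.85), CCNA2 (-1.68), PLK1 (-1.66), CDK2 (-1.22), FZR1 (-0.60), CDK6 (-0.50) and CDK4 (-0.39). Cyclin A with CDK2 phosphorylates B-MYB and FOXM1, PLK1 phosphorylates FOXM1, and FZR1 directs the destruction of FOXM1 at the end of mitosis. CCNA2 stood at 53.6 ± 7.84 CPM in palbociclib libraries and 166 ± 18.1 CPM in DMSO libraries. In DU145, 5 of 9 were higher and 0 lower, against 28.8% and 29.2% of all genes tested. CDKN1A, which encodes the CDK inhibitor p21, stood at 495 ± 17.4 CPM in palbociclib libraries and 182 ± 6.66 CPM in DMSO libraries, a log2 fold change of 1.47 (SE 0.06, edgeR adjusted p = 7.5e-12). The others were CDK6 (0.68), CDK4 (0.52), PLK1 (0.42) and CDK2 (0.41). CCNA2 (-0.01), CCNF (-0.14) and FZR1 (-0.21, edgeR adjusted p = 0.0506) did not pass in DU145. Without DU145 palbociclib replicate 3, CCNF and FZR1 were lower (edgeR adjusted p = 0.0147 and 0.0096), and without DMSO replicate 2 FZR1 was lower (0.0138). FZR1 was also lower in DU145 with library totals (0.0261), with no filter (0.0109) and with the stricter filter (0.0422), so the count of 0 lower does not hold in these settings. DYRK1A, the kinase of LIN52, had 148 ± 8.80 CPM in palbociclib libraries and 141 ± 1.96 CPM in DMSO libraries labelled C4-2, and 58.2 ± 1.5 and 54.1 ± 5.21 CPM in the palbociclib and DMSO libraries labelled DU145, with log2 fold changes of 0.02 in C4-2 and 0.13 in DU145 that did not pass (edgeR adjusted p = 0.837 and 0.174).

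**Figure D4:**
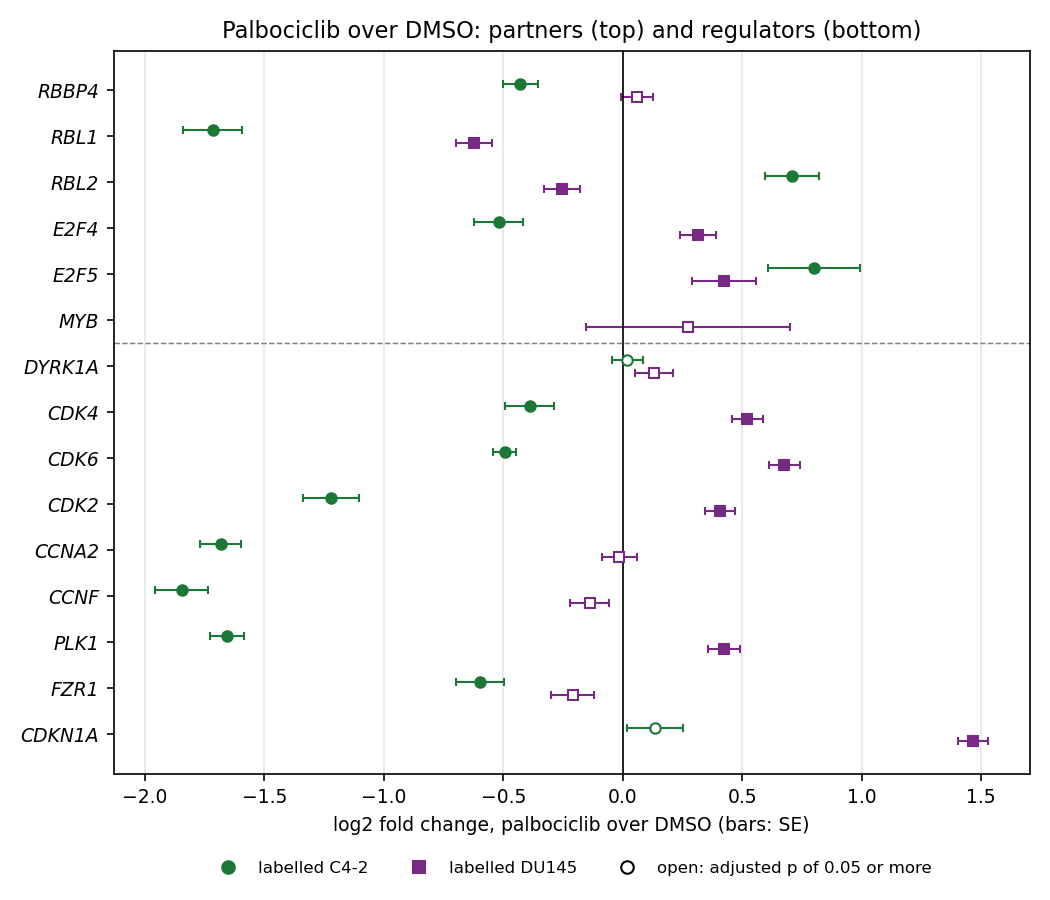
Log2 fold change of palbociclib over DMSO with SE bars for the DREAM partners and MYB (above the dashed line) and the regulators (below it), in libraries labelled C4-2 (circles) and DU145 (squares), filled where edgeR's adjusted p was under 0.05. RBL2 lies at 0.71 in C4-2 and -0.26 in DU145, and CDKN1A at 0.14 and 1.47.

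The genes these complexes are known to control were taken from a list of 45 late targets of G2 and mitosis and 35 early targets of G1/S and DNA replication. PLK1 and CCNB2 (cyclin B2), late targets, are shown for the CHR element that LIN54 binds, TTTGAA in capitals, which begins 29 bases before the start in both. The sequences are from RefSeq (GRCh38.p14, chr16:23678639-23678888 and chr15:59104896-59105145, plus strand in both).
PLK1: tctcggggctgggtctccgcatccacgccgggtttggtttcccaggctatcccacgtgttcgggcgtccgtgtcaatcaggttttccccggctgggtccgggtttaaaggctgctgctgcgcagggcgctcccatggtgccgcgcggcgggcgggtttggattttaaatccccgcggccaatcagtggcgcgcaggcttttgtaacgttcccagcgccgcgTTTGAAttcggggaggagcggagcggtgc
CCNB2: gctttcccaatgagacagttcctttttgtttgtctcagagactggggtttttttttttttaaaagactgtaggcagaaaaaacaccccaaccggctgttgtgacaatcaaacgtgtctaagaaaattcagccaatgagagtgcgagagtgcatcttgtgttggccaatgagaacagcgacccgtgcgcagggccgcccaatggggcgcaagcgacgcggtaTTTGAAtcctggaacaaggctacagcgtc
TTTGAA was held on either strand by 32 of 46 windows of late targets (69.6%), by 1 of 40 windows of early targets (2.5%) and by 15.2% of all windows. At least 1 of the E2F motifs TTTCCCGC, TTTGGCGC and TTCCCGCC was held by 20 of 40 early windows (50%), 4 of 46 late windows (8.7%) and 4.59% of all windows. Windows were present for 39 late and 28 early targets. The lists were drawn up as late targets with CHR promoters and early targets with E2F promoters. These shares were thus in part fixed by the choice of genes, and lend no support to either element. Of the 9 factors, 7 had 13 windows in all, and TTTGAA was in 6 of these (46.2%, against 15.2% of all windows), belonging to LIN9, LIN37, LIN54 and TFDP2. The windows of LIN54 overlap, and the same TTTGAA site is counted in both. The variant TTCGAA was in 1.45% of all windows and in 1 of LIN9. FOXM1 and MYBL1 had no window.

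Late targets were lower in C4-2 and more often higher than lower in DU145, as FOXM1 was lower and higher. In C4-2 all 43 of the 45 late targets that could be tested were lower, against 26.6% of all genes tested, with a median log2 fold change of -1.31, and PRC1 and NUSAP1 had too few counts to be tested. MKI67 (-1.94), the proliferation marker, ANLN (-1.70), CDC20 (-1.76), the activator of the anaphase-promoting complex, and TOP2A (-1.46) had the smallest adjusted p. In DU145, 26 of 45 were higher (57.8%, against 28.8% of all genes tested) and 2 lower (KIF20A and TOP2A; 4.44%, against 29.2%), with a median of 0.27. CKS2 (1.08), TPX2 (0.76), the kinase AURKA (0.70) and UBE2C (0.52) had the smallest adjusted p there. Without DU145 DMSO replicate 3 the count of lower late targets was 4. Early targets were lower for 33 of 35 in C4-2 (94.3%, against 26.6% of all genes tested), with a median of -1.58, and RRM2 (-2.84), MCM4 (-1.76), MCM7 (-2.11) and PCNA (-1.96) had the smallest adjusted p. In DU145, 16 of 34 tested early targets were lower (47.1%, against 29.2% of all genes tested) and 7 higher (20.6%, against 28.8%), with a median of -0.11. PRIM1 (-1.44), a primase subunit, RRM1 (-0.66) and POLA1 (-0.46) were lower, and FEN1 (0.79), a flap endonuclease, was higher. The responses differed between lines for 43 of 45 late targets and 31 of 35 early ones, all of these higher in DU145, as were 18.4% of all genes tested, with median differences of 1.61 and 1.67. That share is over the joint fit, which includes genes too low to be tested in C4-2 alone. The direction of MYBL2 and FOXM1 and that of the target lists come from the same libraries, so setting them side by side is a description.

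**Figure D5:**
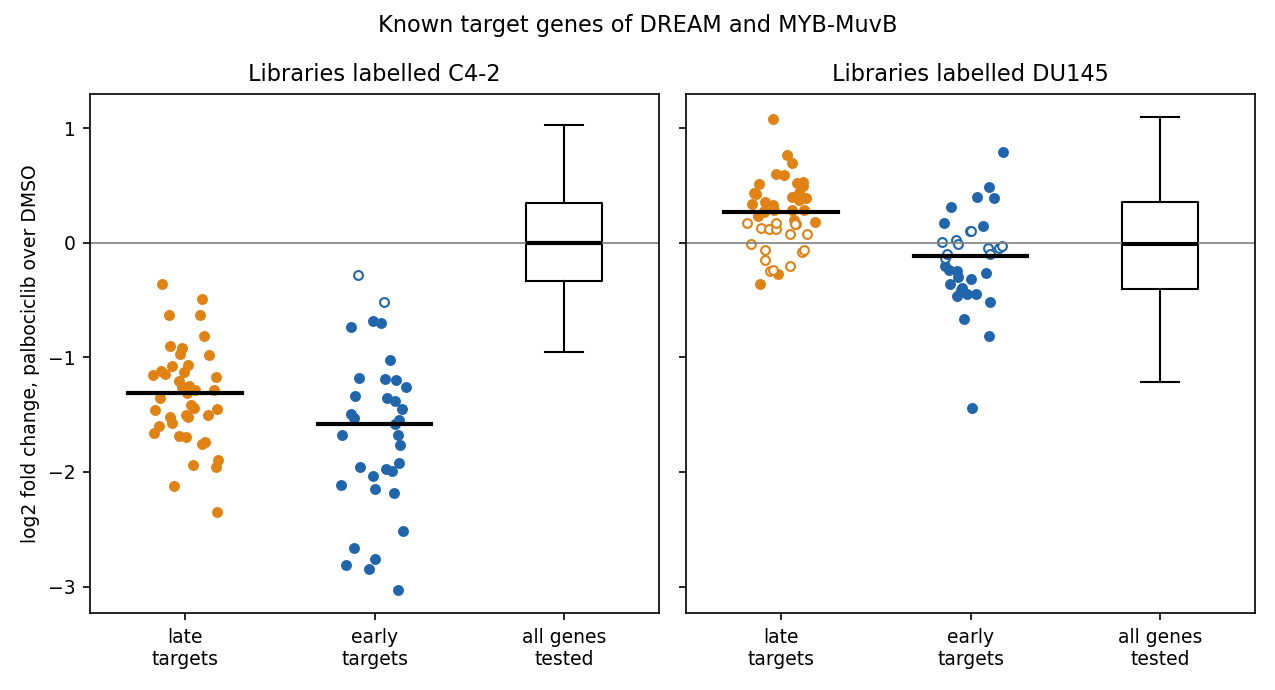
Log2 fold change of palbociclib over DMSO for each tested late and early target (points, spread sideways for legibility; filled where edgeR's adjusted p was under 0.05; bar at the median) beside all genes tested (box: quartiles and median, whiskers: the central 90% of genes). Late targets have medians of -1.31 in C4-2 and 0.27 in DU145, and early targets -1.58 and -0.11.

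Fold changes were also split by motif. In C4-2 the median log2 fold change was -1.45 for the 27 tested late targets with it and -1.33 for the 10 without. In DU145 it was 0.18 for 29 with it, of which 15 were higher and 1 lower, and 0.28 for 10 without, of which 6 were higher and 1 lower. Early targets with an E2F motif had medians of -1.57 in C4-2 and -0.18 in DU145 (18 genes), and those without it -1.67 and -0.03 (10 genes). Over all tested genes with a window, those with an E2F motif had a median of -0.18 in C4-2 (849 genes) and those without it -0.002 (8224 genes). Of the 849, 144 were higher and 335 lower, and of the 8224, 2105 were higher and 2191 lower. In DU145, of 948 genes with an E2F motif, 271 were higher and 316 lower, with a median of -0.05. Of the 9393 without it, 2874 were higher and 2867 lower, with a median of -0.002. For TTTGAA the medians in C4-2 were -0.05 (1249 genes, 309 higher and 409 lower) with it and -0.01 (7824 genes, 1940 higher and 2117 lower) without it. In DU145, of all 1373 tested genes with TTTGAA, 431 were higher and 429 lower, with a median of 0.01. Of the 8968 without it, 2714 were higher and 2754 lower, with a median of -0.01. These splits are descriptions and were not tested.

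The genes whose pattern lay nearest to MYBL2 and FOXM1 were found over 9526 genes and all 11 libraries, as the Euclidean distance between log2(CPM + 1) values centred on the DMSO mean of each line. Nearest to MYBL2 were DNMT1 (0.212), which encodes the maintenance DNA methyltransferase, KIF22 (0.230), MCM4 (0.251), ORC1 (0.270) and TROAP (0.319), against a median distance of 2.96. MCM4 and ORC1 are parts of the replication machinery. Nearest to FOXM1 were ZFAT (0.214), ACTB (0.246), which encodes beta-actin, U2AF2 (0.252), JPT1 (0.264) and SF3A2 (0.267), against a median of 1.85. U2AF2 and SF3A2 encode splicing factors. The libraries of one line share their depth and counting, so these distances describe the tables and carry no test.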

How the data were processed

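Transcripts were measured by RNA-seq of C4-2 and DU145 cells with palbociclib or DMSO. The authors deposited raw read counts per gene, one table per line. Per the file headers, the C4-2 counts were made with featureCounts 2.0.1 over exons of Ensembl 107 on paired reads with no strand setting. How the deposited DU145 counts were aligned and counted, and with which strand setting, is not given in the sources used here. That table also gives gene names, coordinates and gene model lengths in bases. The submitters' processing notes name hg38. Per the labels' protocols, the library kit was directional.

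Gene names of the C4-2 table were taken from the DU145 table by Ensembl identifier. The test was that of edgeR 4.0.16, run on the counts in R 4.3.3 (filterByExpr, TMM scaling, quasi-likelihood F test, Benjamini-Hochberg adjustment over all genes tested, threshold 0.05). Each line was fitted alone, and a joint fit with line, treatment and their interaction gave the difference between lines; it was normalised over both tables, so it need not equal the difference of the separate fits. C4-2 DMSO replicate 3 held only zeros, so the planned 3 against 3 became 3 against 2. SE and 95% intervals were derived from each coefficient with its F value. CPM used library totals, and CPM per kilobase used the gene model length of the DU145 table for both. Limits for a count of 0 take 3 counts, and cover counting error only. The fits were also run on simulated data with known changes, where the same spread was set for all genes and libraries. The spread between the real libraries, given below, was not alike, so that run says nothing of error rates in these data.

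Pairs of replicates were set against each other in a chi-square on genes of 20 or more summed counts. Per degree of freedom it was 1.14 to 1.18 within groups labelled C4-2, 2.36 and 2.37 between DU145 replicates 1 and 2, and 5.41 to 8.34 in DU145 pairs with replicate 3. The joint and separate fits were repeated with other scalings, filters, DESeq2 1.42.0, the replicate number as a block, and without each library in turn.

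The 9 genes and all lists were chosen with earlier results of these data known. The rule for named genes gave the 9 genes, all partners and regulators, the 4 called members of each target list with the smallest adjusted p per line, and the 5 nearest genes to MYBL2 and to FOXM1 among genes with mean CPM of at least 5 in both tables. KIF20A, PRC1, NUSAP1, ITFG2 and CCNB2 (for its promoter), and single marker genes, were named after their values were seen. Promoter windows are those of RefSeq, motif searches covered both strands, and gene overlaps are those of GENCODE 29, whose coordinates match the DU145 table for all 9 genes. Some markers of the leukocyte and luminal lists are not reported here.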

Additional observations from a re-analysis of the deposited data

Results flagged for a closer look

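The responses of 6 genes to palbociclib differed between the lines by the interaction test in edgeR (DU145 log2 fold change minus that of C4-2, 6 against 5 libraries). The difference was 1.83 for MYBL2, 1.44 for LIN52, 1.22 for FOXM1, 0.60 for MYBL1, 0.53 for TFDP1 and -0.75 for TFDP2, and each kept its direction and its side of the threshold in all 17 alternatives. MYBL1 and TFDP1 were lower with palbociclib in both lines, and LIN52 passed within DU145 only. The lines lie in separate tables that differ in depth, annotation and counting, which cannot be told apart from the lines.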

How the results depend on the processing

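Of the 9 genes, LIN9 and MYBL2 in DU145 had a call that depended on the setting. LIN9 also missed the threshold with library totals (edgeR adjusted p = 0.064) and with no filter (0.0765). MYBL2 in DU145 passed with the replicate number as a block (log2 fold change 0.13, edgeR adjusted p = 0.00115) and without both libraries numbered 3 (0.12, 0.0106). LIN9 in C4-2, never called, turned to 0.0679 with the replicate block, 0.066 without palbociclib replicate 3 and 0.27 without DMSO replicate 1, and over all alternatives lay between -0.41 and 0.27. All other members kept direction and call in each alternative run. In C4-2, DESeq2 called 3793 genes in all, against 6184 in edgeR, and the call of CDK4 was lost (DESeq2 adjusted p = 0.0515). In the joint fit, FZR1 passed in edgeR (0.42, adjusted p = 0.0306) but not in 11 alternatives, and the share of higher calls over all genes was 55% with TMM and 45.6% with library totals. Replicate numbers were not taken as pairs: correlations of same-numbered deviations were 0.00677 and 0.0292 in C4-2 and 0.02, 0.0358 and 0.128 in DU145, and not every library correlated best with its own number. The 0.128 was between the DU145 libraries numbered 3, whose correlations with other numbers ran between -0.0874 and -0.0503. What these libraries share was not tested, and the main fit does not account for it. With the block, late targets in DU145 numbered 31 higher and 4 lower of 45 tested, against 26 and 2 in the main fit. The shares over all genes with the block are not reported here. FZR1 and CCNF were also lower in DU145 with the block, as they were without both libraries numbered 3 (edgeR adjusted p = 0.0247 and 0.0155). Depth limits LIN37 and LIN52 in C4-2, where no library held more than 31 counts of either.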
